A study of Cavia porcellus with 30 samples.

Results

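The transcripts COX1, COX2, ATP8, ATP6, COX3 and CYTB, which mammalian mitochondria make from their own DNA, were followed in guinea pig liver after thioacetamide, a compound that liver cells convert to reactive products and that is used to injure the liver experimentally. COX1, COX2 and COX3 encode the catalytic core of cytochrome c oxidase, ATP6 and ATP8 the mitochondrially encoded parts of the ATP synthase, and CYTB the cytochrome b of the bc1 complex. They were 6 of the 25824 transcripts in each table, chosen by identifier, and all 6 were among the 18239 transcripts that passed the filter on low counts. The samples were livers of 30 Hartley guinea pigs, with 5 animals in each of 6 groups. At each of 9 h and 33 h there was a vehicle group given saline at 3 ml/kg, a low dose group given thioacetamide at 25 mg/kg and a high dose group given 100 mg/kg. The sources used here do not state the sex or age of the animals or the route of dosing. Whole tissue was sequenced, so fewer cells of a type and less RNA per cell cannot be told apart.

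Cells keep a small circular genome inside the mitochondria, and in mammals its 2 strands are transcribed as long precursors from which the messenger RNAs are cut at the transfer RNA genes that lie between them. The proteins encoded there join nuclear-encoded subunits to form the respiratory chain. Electrons pass through complex I and cytochrome b to cytochrome c oxidase, and the proton gradient made on the way drives the ATP synthase. Hepatocytes are rich in mitochondria, and their mitochondrial messenger RNAs are among the most abundant RNAs in liver. In mammals the ATP8 and ATP6 coding regions overlap and are carried on 1 messenger RNA, so reads in the shared stretch can be assigned to either transcript.

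The tables carry identifiers without gene names, and the names used here are inferred. The 6 identifiers belong to a run of 13 with closely spaced numbers, from ENSCPOT00000017558.1 to ENSCPOT00000017587.1, and the numbers skipped between them fall where the mammalian mitochondrial genome has transfer RNA genes. COX1 is ENSCPOT00000017568.1, with 1542 bases or 514 whole codons, and 5 numbers are skipped before it. COX2 is ENSCPOT00000017571.1, with 684 bases, after 2 skipped numbers. ATP8 is ENSCPOT00000017573.1, the shortest at 204 bases, after 1 skipped number. ATP6 (ENSCPOT00000017574.1, 681 bases) and COX3 (ENSCPOT00000017575.1, 784 bases) follow with 0 numbers skipped before either, as in a genome where ATP8, ATP6 and COX3 adjoin. CYTB is ENSCPOT00000017587.1, with 1140 bases, after 1 skipped number. COX3 is the 1 member whose length is not a multiple of 3, being 261 codons and 1 base over. Several mammalian mitochondrial messenger RNAs end in this way, and their stop codon is completed by the poly-A tail. Less the stop codon, the other lengths give 513 residues for COX1, 227 for COX2, 67 for ATP8, 226 for ATP6 and 379 for CYTB. Genome coordinates and sequences of these transcripts were not analysed here.

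Library totals ran from 21352800 to 33842300 estimated counts, and each member had between 8496 (ATP8) and 289286 (COX1) of them in a library. The scaling factors that edgeR's TMM method gave differed by group at 33 h, being 0.869 ± 0.0281 in vehicle, 1.09 ± 0.0896 at 25 mg/kg and 1.32 ± 0.0840 at 100 mg/kg (SD, n = 5). Because of this, 2 measures are given. The scaled level is the count per 1000000 (CPM) of the TMM-scaled library size, which brings most transcripts to a common level between libraries. The library share is CPM of the library total, the part of all counted reads that a transcript takes. TPM, a share that also divides by effective transcript length, is used to compare the level of one member with that of another. Liver marker genes were not analysed here, since the tables do not pair identifiers with names.

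The 6 transcripts together made up 2.35% to 3.38% of the counts of a library (median 2.67%) and 4.55% to 7.16% of its TPM. COX1 ranked between 6 and 17 among all transcripts by count, and CYTB between 8 and 29. ATP8, short and with few counts, ranked between 156 and 440 by count but between 7 and 31 by TPM. Per length, ATP6 was the highest member at 12643 ± 1805 TPM over the 30 animals (SD). COX3 followed at 11035 ± 1510 TPM, and ATP6 was above it in 27 of 30 animals. ATP8 stood at 9118 ± 1521 TPM, below COX3 in 27 of 30 and above COX1 in 25 of 30. The last 3 were close, with COX1 at 7523 ± 948, COX2 at 7412 ± 870 and CYTB at 7296 ± 1123 TPM, and their order changed from group to group. COX1 exceeded COX2 in 18 of 30 animals and COX2 exceeded CYTB in 15 of 30, so these neighbours did not differ beyond their spread. By group means, ATP6, COX3 and ATP8 held the top 3 places in this order in each of the 6 groups. In vehicle at 9 h, however, ATP8 was above COX1 in only 2 of 5 animals. Since ATP8 and ATP6 are carried on 1 messenger RNA in mammals, their unlike TPM cannot be read as unlike levels of 2 messenger RNAs. The place of ATP8 also rests on an effective length of only 48.0 to 63.6 of its 204 bases.

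At 9 h none of the 6 transcripts was called different from vehicle at either dose by edgeR's quasi-likelihood test (adjusted p under 0.05). This stands against 24.7% of all tested transcripts called at 25 mg/kg and 26.3% at 100 mg/kg. Unadjusted p-values under 0.05 were found for 2 members at 25 mg/kg and 1 at 100 mg/kg. DESeq2 called 1 at the low dose (COX1, adjusted p = 0.0389, where it called 11% of transcripts lower) and 0 at the high dose, and limma voom called 0 at either. The fitted log2 fold changes of the members lay between -0.30 and 0.12 at the low dose and between -0.26 and 0.20 at the high dose. COX1, the oxygen-binding subunit, came nearest to a call. Its scaled level was 12015, 11838, 9172, 8154 and 10154 CPM in the vehicle animals at 9 h. The low dose animals had 7924, 8467, 9894, 7965 and 7540 CPM, and the high dose animals 7389, 9317, 9639, 8300.0 and 8365 CPM. The treated animals lay between 7389 and 9894 CPM, in the lower part of the vehicle range and below it, and the groups overlapped. The log2 fold change of COX1 was -0.30 ± 0.12 at the low dose (SE, adjusted p = 0.0660, n = 5 per group) and -0.26 ± 0.12 at the high dose (SE, adjusted p = 0.114). Vehicle animal 4 held the lowest COX1 level of its group, and without it both differences passed the test, at -0.36 (adjusted p = 0.0273) and -0.33 (adjusted p = 0.0417). Without low dose animal 3 the low dose difference also passed (-0.36, adjusted p = 0.0326). On TPM, limma called COX1 at the high dose (-0.32 on the log2(TPM + 1) scale, adjusted p = 0.0235), where 14.7% of all transcripts were called lower.

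At 33 h, 5 of the 6 transcripts, all but ATP8, fell at both doses on the scaled level, whereas by library share none was called and COX2, ATP8, ATP6 and CYTB lay on the positive side at the high dose. In comparison, 11.4% of all tested transcripts were called lower at 25 mg/kg and 22.5% at 100 mg/kg. The members' median log2 fold change was -0.45 at 25 mg/kg and -0.51 at 100 mg/kg, where the median of all transcripts was 0.03 and 0.09. The 6 are not independent, since their levels were correlated between animals of a group (pairwise r from 0.22 to 0.90). The low and high dose comparisons also share their vehicle animals.

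**Figure D1:**
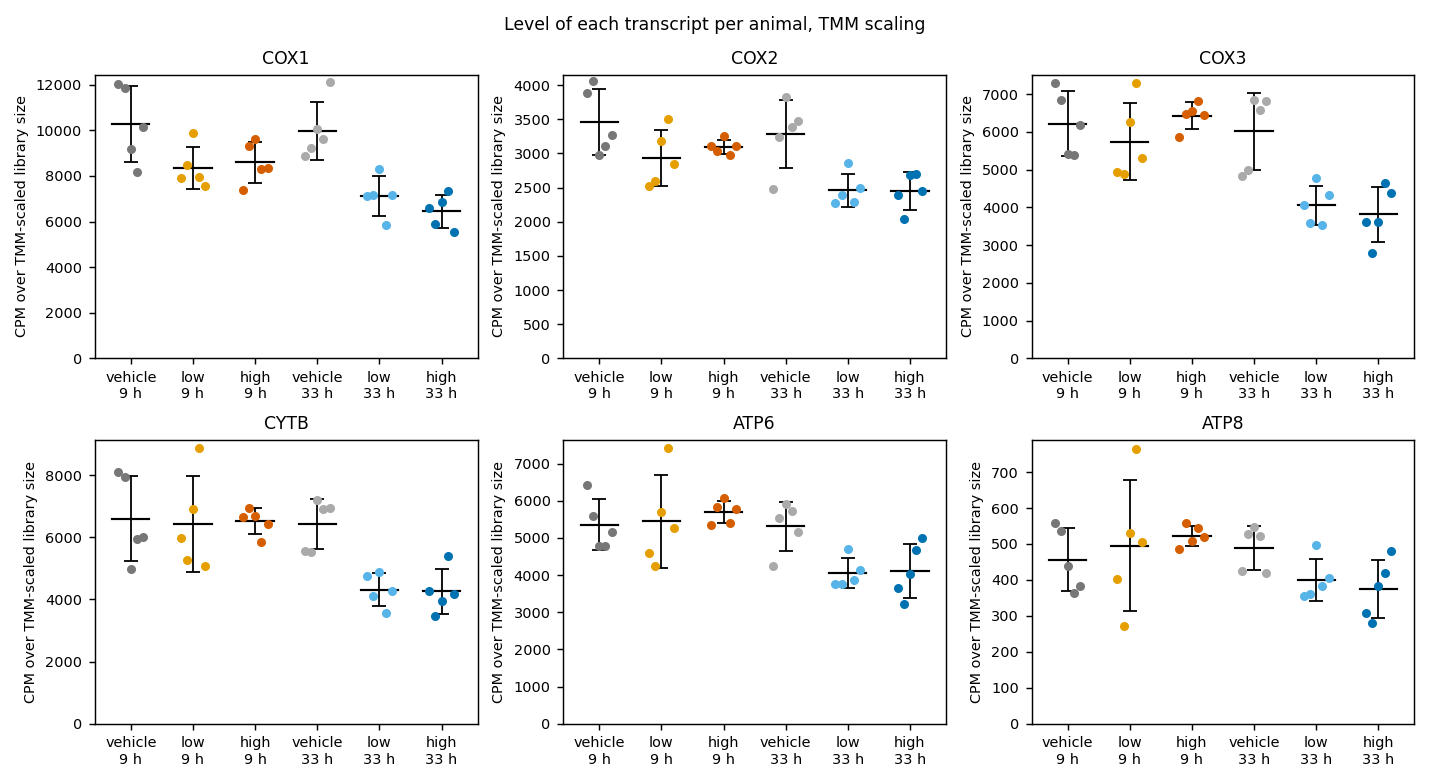
Scaled level (CPM of the TMM-scaled library size, linear axes from 0) of each of the 6 transcripts in each animal, by dose and time group; points are animals and bars mark the mean ± SD of 5. At 33 h the means of COX1 were 9977, 7111 and 6444 CPM in vehicle, low and high dose, while the 9 h groups overlapped for each member; by library share the 33 h means of COX1 were 8663, 7696 and 8530.3 CPM.

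The 3 cytochrome c oxidase transcripts were each lower at 33 h on the scaled level, though by library share none was called and COX2 stood at 0.19 (log2) at the high dose. COX1 had 8869.8, 9211, 10056, 9632 and 12118 CPM on the scaled level in the vehicle animals. It had 7099, 7142, 8317, 5849 and 7149 CPM at the low dose and 6605, 5878, 6838, 7344 and 5556 CPM at the high dose. Every treated animal was below every vehicle animal, and the log2 fold change was -0.49 ± 0.12 at the low dose (SE, adjusted p = 0.00266) and -0.63 ± 0.12 at the high dose (adjusted p = 5.77e-05). COX3, the third core subunit, had 4820.1, 4983, 6852, 6585 and 6825 CPM in vehicle. Its values were 4069.7, 3597, 4768, 3527 and 4337 CPM at the low dose and 3613, 2798, 3621, 4643 and 4392 CPM at the high dose. Again no treated animal reached the lowest vehicle animal, with log2 fold changes of -0.57 ± 0.14 (adjusted p = 0.00304) and -0.66 ± 0.14 (adjusted p = 0.000249). COX2, which carries the copper site that receives electrons from cytochrome c, had 2473, 3241, 3823, 3390 and 3471 CPM in vehicle. Its levels were 2269, 2390.0, 2856, 2289 and 2500.4 CPM at the low dose and 2385, 2035, 2687, 2703 and 2442 CPM at the high dose. Vehicle animal 1 lay within both treated ranges and the other 4 lay above all treated animals. The differences were -0.41 ± 0.11 (adjusted p = 0.00736) and -0.42 ± 0.11 (adjusted p = 0.00275).

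CYTB fell by a similar amount on the scaled level, where its library share gave log2 fold changes of -0.25 and 0.01. It stood at 5558, 5542, 7192, 6896 and 6959 CPM in the vehicle animals at 33 h. The low dose animals had 4769.6, 4105, 4889, 3558 and 4258 CPM, and the high dose animals 4286, 3457, 3962, 5402 and 4173 CPM. The groups did not overlap at either dose, and the log2 fold changes were -0.57 ± 0.15 (SE, adjusted p = 0.00478) and -0.60 ± 0.15 (adjusted p = 0.0014). COX1, COX3 and CYTB were thus the 3 members without overlap at both doses. Over all tested transcripts, 7.28% were lower without overlap at 25 mg/kg and 15.2% at 100 mg/kg.

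By library share the log2 fold changes of the ATP synthase pair at 33 h were -0.07 (ATP6) and 0.03 (ATP8) at the low dose. At the high dose they were 0.23 and 0.22, the highest of the 6, without a call. On the scaled level the pair gave the smallest differences of the 6, close to those of COX2. ATP6, which forms the proton path through the membrane, had 4236, 5530, 5925, 5717 and 5149 CPM in vehicle at 33 h. It had 3769, 3751, 4716, 3872 and 4148 CPM at the low dose and 3646, 3219, 4034, 4676 and 4994 CPM at the high dose. Vehicle animal 1 overlapped the treated animals, and the fold changes passed narrowly, at -0.39 ± 0.13 (SE, adjusted p = 0.0304) and -0.37 ± 0.13 (adjusted p = 0.0222). The low dose call of ATP6 was lost without any 1 of vehicle animals 2, 3 and 4 or low dose animals 1, 2 and 4 (adjusted p from 0.0631 to 0.0852). Its high dose call was lost without any 1 of vehicle animals 3 and 4 or high dose animals 1 and 2 (adjusted p from 0.0514 to 0.0783). ATP8, a small subunit of the same membrane part, had 425, 528, 546, 522 and 420.3 CPM in vehicle. It had 355, 361, 497, 382 and 406 CPM at the low dose and 308, 281, 384, 419 and 481 CPM at the high dose. These ranges overlapped, and the differences of -0.29 ± 0.19 (adjusted p = 0.282) and -0.38 ± 0.19 (adjusted p = 0.0879) did not pass. ATP8 did pass at the high dose without high dose animal 5 (-0.49, adjusted p = 0.0370). Its intervals, -0.67 to 0.10 and -0.77 to 0.00 (95%), contain the values fitted for the other 5 members, so ATP8 is not shown to differ from them.

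As a share of the library, the picture at 33 h was different. None of the 6 was called at either dose, although 40.8% of all transcripts were called at 25 mg/kg and 65.5% at 100 mg/kg. An unadjusted p under 0.05 was found for 1 member at each dose. The members' log2 fold changes by library share lay between -0.25 and 0.03 at the low dose and between -0.06 and 0.23 at the high dose. At the high dose COX2 (0.19), ATP6 (0.23) and CYTB (0.01) turned to the positive side, as did ATP8 (0.22), which was called under neither scaling, and COX1 (-0.02) and COX3 (-0.06) came near 0. COX1 took 7931, 8109, 8263, 8491 and 10522 CPM of the library in the vehicle animals. It took 8333, 8419, 9463, 9597 and 6839 CPM of the library in the high dose animals, so the groups covered much the same range. The summed share of the 6 was 2.73 ± 0.271% in vehicle, 2.43 ± 0.0797% at 25 mg/kg and 2.83 ± 0.308% at 100 mg/kg (SD, n = 5). On the scaled level the same sums were 31499 ± 3675, 22399 ± 2402 and 21452 ± 2692 CPM.

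**Figure D2:**
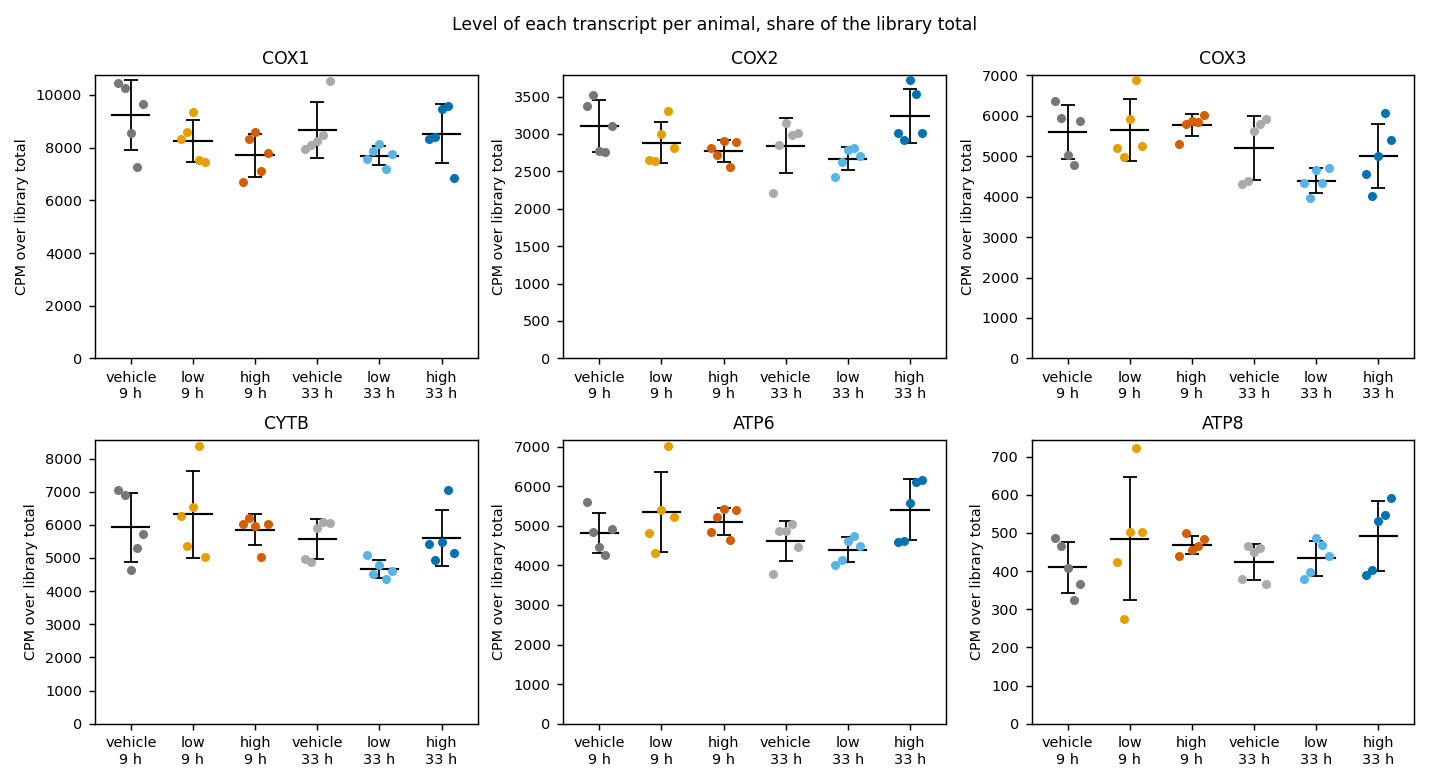
Library share (CPM of the library total, linear axes from 0) of each of the 6 transcripts in each animal, by dose and time group; points are animals and bars mark the mean ± SD of 5. At 33 h the mean shares of COX1 were 8663, 7696 and 8530.3 CPM in vehicle, low and high dose, and vehicle and high dose animals overlapped for all 6.

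The 2 measures differ by how all other transcripts are placed. With library totals the median log2 fold change of all tested transcripts at 33 h was 0.36 at 25 mg/kg and 0.70 at 100 mg/kg, against 0.03 and 0.09 with TMM. Relative to that median the members stood at nearly the same distance under both scalings. The median of the 6 less the median of all was -0.48 with TMM and -0.49 with library totals at 25 mg/kg, and -0.60 under both at 100 mg/kg. A change of scaling moves all transcripts of a comparison by nearly the same amount, so this agreement was fixed in advance and is no separate support. The 6 transcripts ranked low among all transcripts at 33 h. Percentiles of the scaled log2 fold change ran from 11.9 (CYTB) to 25.1 (ATP8) at the low dose. At the high dose they ran from 17.8 (COX3) to 27.5 (ATP6). The total RNA per liver was not measured, so the scaled level and the library share are 2 readings of the same counts.

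**Figure D3:**
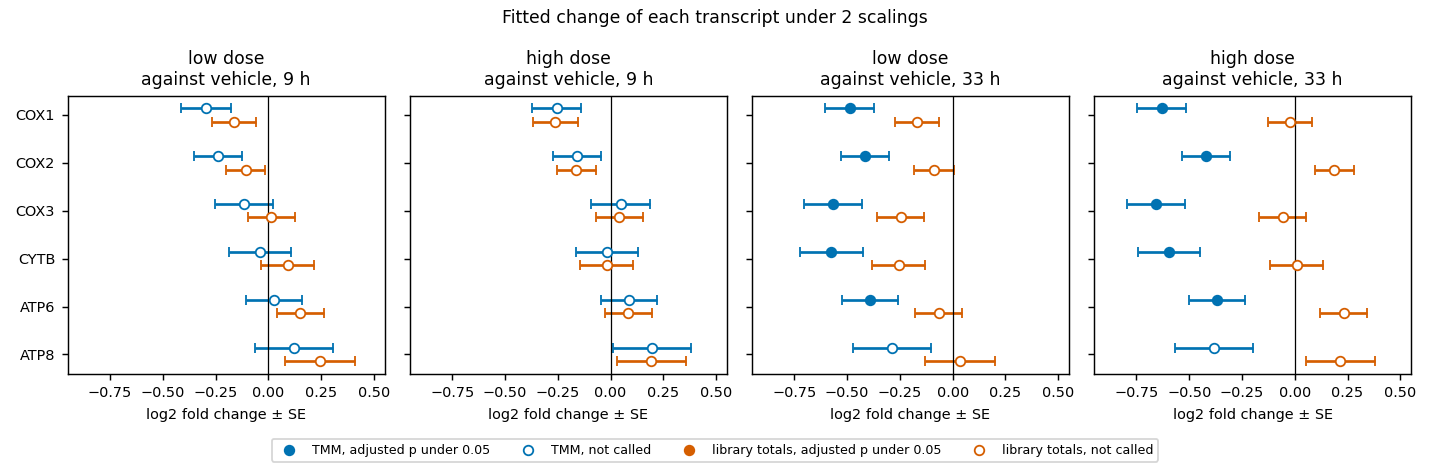
Fitted log2 fold change ± SE of each transcript in the 4 comparisons of a dose with vehicle, under TMM scaling and under library totals. At 33 h the TMM values of all 6 lie below 0 at both doses, and the library total values at the high dose lie between -0.06 and 0.23.

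TPM, the other deposited unit, gave results close to the library share. With limma on log2(TPM + 1), 0 members were called at the low dose at 33 h (45.3% of all tested transcripts) and 2 were higher at the high dose, where 59.9% of all tested transcripts were called higher. COX2 had 5545, 7205, 7701, 7531 and 7825 TPM in vehicle and 7430.2, 7462, 9187, 9369 and 8330 TPM at the high dose. The ranges overlapped, and the difference was 0.23 ± 0.10 on the log2(TPM + 1) scale (SE, adjusted p = 0.0369). ATP6 had 9559, 12370.1, 12011, 12782 and 11683 TPM in vehicle and 11432, 11881, 13876, 16313 and 17140 TPM at the high dose. High dose animals 3, 4 and 5 were above the vehicle range, and the difference was 0.26 ± 0.12 (SE, adjusted p = 0.0496). The summed TPM of the 6 was 5.30 ± 0.471% of the total in vehicle, 5.11 ± 0.256% at 25 mg/kg and 5.83 ± 0.813% at 100 mg/kg (SD, n = 5).

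Most other very abundant transcripts had larger decreases than the members at the high dose. The comparison set, chosen after the data were seen, was the 110 tested transcripts outside the mitochondrial run that exceeded 1000 TPM on average among vehicle animals at 9 h, which take no part in the 33 h comparison. At the high dose at 33 h these had a median log2 fold change of -1.33 (quartiles -1.69 and -0.62) on the scaled level, and 92 were called lower and 3 higher. The members' median in that comparison was -0.51. In the set, 74 of 110 transcripts had a lower fitted value than the lowest member and 19 a higher one than the highest member. By library share the medians were -0.73 for the set and 0.10 for the members. At the low dose the set's median was -0.63 on the scaled level with 63 called lower, against -0.45 for the members.

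The 2 doses were not told apart for any member on the scaled level. Between high and low dose 0 of 6 were called at 9 h (7.08% of all transcripts) and 0 of 6 at 33 h (33.2%), with 0 unadjusted p-values under 0.05 at either time. The interval of the difference at 33 h was -0.38 to 0.10 for COX1, -0.24 to 0.23 for COX2, -0.48 to 0.29 for ATP8, -0.25 to 0.30 for ATP6, -0.38 to 0.19 for COX3 and -0.33 to 0.29 for CYTB (log2, 95%). By library share, COX2 (0.28, adjusted p = 0.0192) and ATP6 (0.30, adjusted p = 0.0329) were higher at the high than at the low dose at 33 h, where 33.9% of all transcripts were called higher. In COX2 the shares did not overlap, at 2421, 2630.1, 2791, 2809 and 2708 CPM at the low dose and 3009, 2914, 3719, 3532 and 3006 CPM at the high dose. By library share, 12.7% of all transcripts were higher without overlap.

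Between vehicle livers at 33 h and 9 h none of the 6 was called, with 0 unadjusted p-values under 0.05 and log2 fold changes from -0.08 to 0.10, where 0.581% of all transcripts were called. The dose effects were then compared between times. For the high dose, the effect on COX3 was more negative at 33 h than at 9 h, with a difference of -0.70 ± 0.20 in log2 fold change (SE, adjusted p = 0.00578). The difference for CYTB was -0.58 ± 0.21 on the scaled level (SE, adjusted p = 0.0322) but 0.03 by library share. These 2 of 6 stand beside 16.8% of all transcripts with a more negative effect at 33 h. The COX3 difference passed the test whichever animal was left out. The CYTB difference was lost in 10 of the 20 single omissions (adjusted p from 0.0510 to 0.0750), namely vehicle animals 3, 4 and 5 and high dose animals 2 and 3 at either time. By library share, neither passed and COX2 alone was called, with a more positive effect at 33 h (0.35, adjusted p = 0.0277; 46.3% of all transcripts). For the low dose no member's effect was called different between times (11.3% of all transcripts), with 3 unadjusted p-values under 0.05, and DESeq2 and limma voom also called 0.

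A ratio of 2 members within a library does not depend on the scaling between libraries. Each member's count was divided by that of COX1 in the same animal, and each dose was compared with vehicle at each time, which made 20 comparisons. None passed an exact two-sided permutation test after adjustment over the 20. The strongest differences were at the high dose at 9 h, where ATP8, ATP6 and COX3 were higher relative to COX1 in every treated animal than in any vehicle animal. For these 3 the exact p was 0.00794, the smallest that 5 against 5 animals allow, and the adjusted p was 0.0529. Adjustment over the 20 cannot bring 3 ratios at this smallest p under 0.05 by themselves, however large the differences. The ATP6 to COX1 ratio was 0.536, 0.472, 0.523, 0.588 and 0.509 in vehicle at 9 h. It was 0.725, 0.626, 0.630, 0.652 and 0.692 at the high dose, a 1.27-fold difference in geometric means. COX3 per COX1 averaged 0.609 ± 0.0315 in vehicle and 0.752 ± 0.0611 at the high dose (SD, n = 5). ATP8 per COX1 averaged 0.0444 ± 0.00386 and 0.0612 ± 0.00524, a 1.38-fold difference. CYTB per COX1 was 1.19-fold higher (exact p = 0.0397, adjusted p = 0.198) and COX2 per COX1 1.07-fold higher (exact p = 0.27, adjusted p = 0.415). In this comparison the ratio to COX1 was higher without overlap for 13.2% of all tested transcripts, so 3 of 5 members stand beside that share. These 3 are not separate observations. All ratios share COX1 as denominator, and COX1 itself had a log2 fold change of -0.26 here on the scaled level, without a call. ATP8 and ATP6 also share a messenger RNA in mammals.

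**Figure D4:**
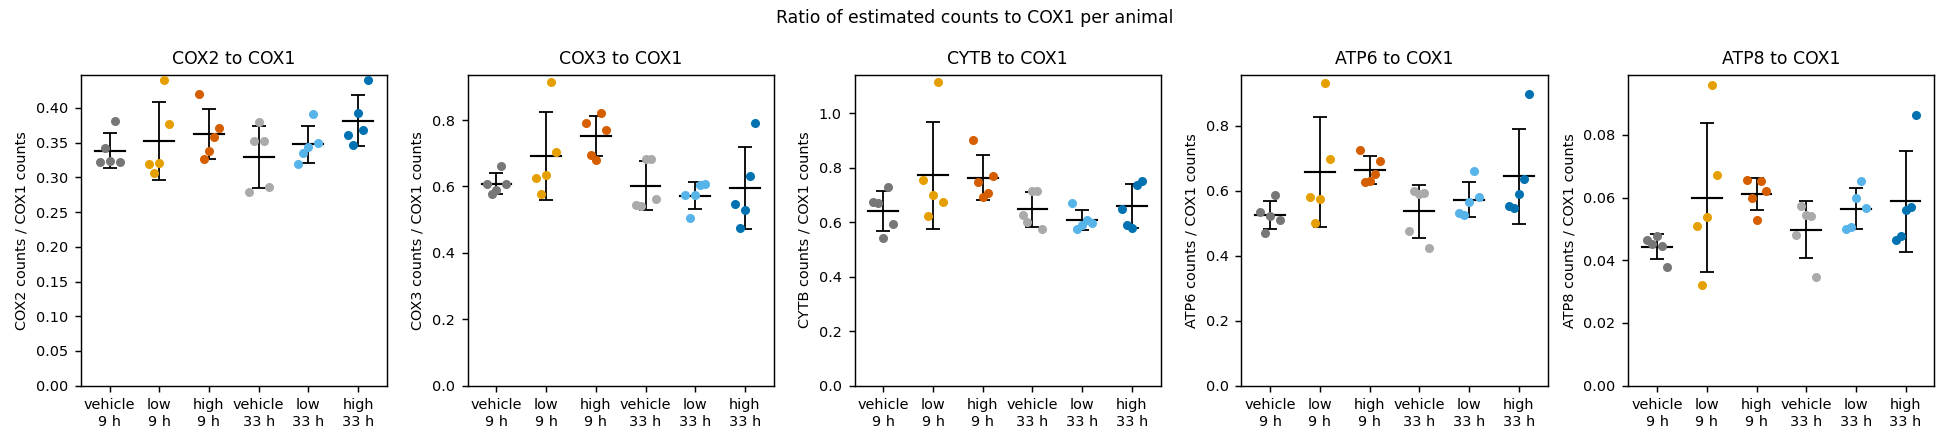
Ratio of each member's estimated count to that of COX1 in the same library, by dose and time group, 1 point per animal with the mean ± SD of 5. At 9 h the high dose ratios of ATP8, ATP6 and COX3 lie above all vehicle animals, and 1 low dose animal at 9 h and 1 high dose animal at 33 h stand above their groups.

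At the low dose at 9 h the ratios had the widest spread. Animal 4 of that group had the highest ratio for ATP8 (0.0961), ATP6 (0.933), COX3 (0.915) and CYTB (1.11), and animal 2 the lowest ATP8 ratio (0.0320). The ATP8 ratio of the group averaged 0.0600 ± 0.0238 (SD, n = 5), and its difference from vehicle had an exact p of 0.238. Without animal 2 it was higher without overlap, and 4 of the 20 comparisons then passed (adjusted p = 0.0397 for ATP8 by exact permutation test). Apart from ATP8 these were the high dose ratios at 9 h, in which this animal takes no part. Their exact p-values did not change. They passed only because another ratio joined them at the smallest p in the adjustment, so this adds no support for them. At 33 h no ratio to COX1 had an exact p under 0.05 at either dose. COX3 relative to its neighbour ATP6, given here as a description, averaged 1.13 ± 0.151 in vehicle, 1.001 ± 0.0674 at 25 mg/kg and 0.926 ± 0.0611 at 100 mg/kg at 33 h (SD, n = 5). Vehicle animal 2, at 0.901, lay within the high dose range of 0.869 to 0.993, and the other 4 vehicle animals, from 1.14 to 1.33, lay above it.

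ATP8 was the least evenly measured member. It is so short that the effective length, the number of positions a sequenced fragment can start from, was a median of 60.2 of its 204 bases, against 1329 of 1542 for COX1. This length varied between libraries from 48.0 to 63.6 bases, a 1.32-fold range, while that of COX1 varied 1.04-fold. The ratio of ATP8 to ATP6 counts ran from 0.0638 to 0.105 and was higher where the effective length of ATP8 was longer (Pearson r = 0.74, permutation p = 3.0e-05, adjusted p = 6.0e-05 over 6 relations; Spearman rho = 0.58, permutation p = 0.00097, adjusted p = 0.00194; n = 30). Without the 2 libraries farthest from the median length, r was 0.41. As deviations from the group means r was 0.76, and 0.57 without those 2. Within a tolerance of 1e-06, and at the decimals the deposited values keep, ATP8 counts were whole in 21 of 30 libraries and lay up to 0.4 from a whole number in the other 9, whereas COX2 counts were whole in all 30. ATP8 also had the largest spread between animals of a group, with an SD of 0.31 on the log2 scaled level, compared with 0.17 to 0.23 for the other 5. Its effective length averaged 60.6 ± 1.12 bases in vehicle, 59.9 ± 2.76 at 25 mg/kg and 60.5 ± 3.16 at 100 mg/kg at 33 h (SD, n = 5). At 9 h it averaged 58.0 ± 4.45 bases in vehicle, 57.4 ± 5.56 at 25 mg/kg and 59.3 ± 2.21 at 100 mg/kg (SD, n = 5). The ratio of ATP8 to COX1 was also higher at longer ATP8 effective lengths (r = 0.60, and 0.70 as deviations from group means). Without the 2 farthest libraries these were 0.37 and 0.55. For ATP6 to COX1, r with the ATP8 effective length was 0.35, and 0.49 as deviations (permutation, adjusted p = 0.0569 and 0.00773). Without the 2 farthest they were 0.26 and 0.41. The part of effective length in the differences of these ratios between groups was not tested.

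**Figure D5:**
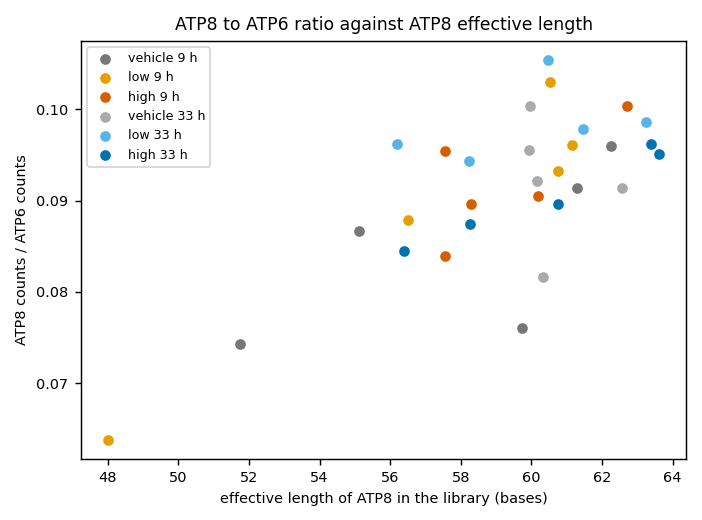
Ratio of ATP8 to ATP6 estimated counts (y) against the effective length of ATP8 in the same library in bases (x), 1 point per animal, marked by group. The ratio ran from 0.0638 to 0.105 and was higher at longer effective lengths, with r = 0.74 over 30 libraries and 0.41 without the 2 farthest.

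The members other than COX1 moved together between animals of 1 group, and COX1 followed them less closely. Over deviations of the log2 scaled level from the group means in the 30 libraries, the 15 pairs had correlations between 0.22 and 0.90, with a median of 0.72. ATP8 and ATP6, which share a messenger RNA in mammals, had the highest (0.90), and COX1 and ATP8 the lowest (0.22). The 5 pairs with COX1 ranged from 0.22 to 0.61 and the 10 pairs without it from 0.61 to 0.90. On the library share the pairs with COX1 ranged from -0.01 to 0.49 and those without it from 0.49 to 0.87. These are descriptions over libraries whose values share a depth and a scaling factor.

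The other 7 transcripts of the run, ND1, ND2, ND3, ND4L, ND4, ND5 and ND6, encode the membrane subunits of complex I, where electrons from NADH enter the chain. At 33 h, 5 of these 7 fell at each dose on the scaled level, where 11.4% and 22.5% of all transcripts were called lower. By library share 0 of 7 were called at the low dose, where 40.8% of all transcripts were called. At the high dose 2 of 7 were higher by library share, as were 56.8% of all transcripts. Their median log2 fold changes on the scaled level were -0.43 and -0.56, beside the members' -0.45 and -0.51. At 9 h 0 of 7 were called at either dose on the scaled level (24.7% and 26.3% of all transcripts), with 0 unadjusted p-values under 0.05. On the scaled level the effect of the high dose was more negative at 33 h than at 9 h for 3 of 7 (16.8% of all transcripts), whereas by library share it was more negative for 0 of 7 and more positive for 2 of 7 (46.3% of all transcripts). The 6 members made up 56.9% to 63.2% of the counts of the 13 transcripts in each library, and the group means of that share were between 59.3% and 60.6%.

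All other tested transcripts were ordered by their correlation with the mean of the 6 in log2 scaled level over the 30 libraries. Of the 20 nearest, 5 were complex I transcripts, with r up to 0.95 (ND1), while ND6 (0.76) and ND5 (0.63) stood further down, at ranks 194 and 1054. Within groups, as deviations from group means, all 7 were among the 20 nearest. The nearest outside the run was ENSCPOT00000046649.1, a transcript of 4556 bases with no name in the tables (r = 0.90, and 0.83 within groups). Its log2 difference on the scaled level was -1.10 ± 0.15 at the high dose at 33 h (SE), given as a description, since levels in these animals entered the choice of the transcript. The next was ENSCPOT00000014993.3 (r = 0.86), at -1.22 ± 0.14 in that comparison (SE). It was not among the 20 nearest within groups. There the next outside the run was ENSCPOT00000033982.1 (r = 0.80), at -0.61 ± 0.08 in that comparison (SE).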

How the data were processed

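Per the labels' protocols, RNA of guinea pig liver was made into poly-A-enriched stranded libraries and read from both ends. The authors quantified transcripts with kallisto 0.42.4, per the submitters' processing notes. Which transcript set was used is not given in the sources used here. Per the file headers, each of the 30 deposited tables gives estimated counts per transcript, TPM, and the transcript's length and effective length. The deposited estimated counts carry no normalization. Recomputing TPM from the estimated counts and effective lengths matched the authors' deposited TPM to within 0.000991% where TPM was at least 1. Depth was 21352800 to 33842300 estimated counts per library, so counting error of the members is small beside the spread between animals.

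The reference table used here (assembly mCavPor4.1, 37416 genes) matched 0 of the identifiers, so planned lists of nuclear respiratory subunits and of cell type markers were not run. Members and lists were chosen with earlier results of these data known. By the rule for naming, all 6 members are named in every comparison and the 7 complex I transcripts are given by counts. The 2 nearest transcripts outside the run are named, over all libraries and within groups.

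Estimated counts were rounded and analysed with edgeR 4.0.16 (R 4.3.3): filterByExpr by group (minimum count 10, minimum total 15), TMM, and 1 quasi-likelihood model with 1 coefficient for each of the 6 groups over all 30 animals. The 9 contrasts were each adjusted by Benjamini-Hochberg over 18239 transcripts and called at an adjusted p under 0.05. SE was taken as the absolute log2 fold change divided by the root of the F statistic, and intervals (95%) use 24 residual degrees of freedom. Ratios were tested by exact two-sided permutation (252 arrangements). Correlation p-values come from 100000 permutations. The labels name no batch. The series design describes 30 animals, so samples were taken as separate animals, numbered in accession order only. Over 60 pairs of libraries within groups the chi-square per degree of freedom was 23.6 to 190.1, so no library repeated another of its group. The model was tested on simulated counts in which a small set of transcripts was changed in the high dose group at 33 h. That simulation did not test the choice of scaling at 33 h. Alternatives were library totals, RLE size factors, TMM without the 13 mitochondrial transcripts, no count filter, DESeq2 1.42.0, limma 3.58.1 (voom, and log2 of TPM plus a pseudocount of 1), a fit of the compared groups alone, and leaving out each animal.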

Additional observations from a re-analysis of the deposited data

Results flagged for a closer look

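Within-group values were searched for an animal far from the others of its group by Dixon's criterion for 5 values (0.71). The values were the scaled levels of the members, their ratios to COX1 and the summed library share, which made 72 groups of values. Of these 72, 3 exceeded it, all of them ratios. Chance gives about 1 in 20, so this number is no more than chance would give. CYTB per COX1 was 1.11 in animal 4 of the low dose group at 9 h, with the nearest other animal at 0.753 and the lowest at 0.622. ATP8 per COX1 was 0.0865 in animal 5 of the high dose group at 33 h, with the nearest at 0.0571. ATP6 per COX1 was 0.899 in the same animal, with the nearest at 0.637.

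By a test of the difference itself, the high dose gave unlike log2 fold changes at 33 h and 9 h for COX3 (-0.70 in log2 fold change, adjusted p = 0.00578) and CYTB (-0.58, adjusted p = 0.0322) on the scaled level, by edgeR's quasi-likelihood test. Of all transcripts, 16.8% had a more negative effect at 33 h on that level. By library share neither passed (-0.10 for COX3 and 0.03 for CYTB). The CYTB call was lost in 10 of the 20 single omissions.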

How the results depend on the processing

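Scaling decided the calls at 33 h. With library totals 0 members were called at the low dose (40.8% of all transcripts) and 0 at the high dose (65.5%). In the same setting 2 were called between the doses at 33 h (33.9% of all transcripts higher). For the high dose effect between times it was 1 (46.3% with a more positive effect). On TPM these were 0 (45.3%), 2 (59.9% higher), 1 (33.6% higher) and 1 (51.8% more positive). TPM also gave 1 call for the high dose at 9 h (14.7% lower). Among members called under either setting, the values that then changed sign at the high dose at 33 h were COX2 0.19, ATP6 0.23 and CYTB 0.0085 with library totals, and COX1 0.0028, COX2 0.23, ATP6 0.26 and CYTB 0.033 on TPM. ATP6 at the low dose at 33 h was 0.0091 on TPM. COX2 between the doses at 33 h was 0.28 with library totals and 0.24 on TPM. For the high dose effect between times COX2 was 0.35 and CYTB 0.027 with library totals, and 0.46 and 0.10 on TPM. DESeq2 gave 1 call for the low dose at 9 h (11% of transcripts lower). For the high dose effect between times it gave 4, beside 35.3% of the transcripts it tested in either direction. The fit of the compared groups alone also gave 4 there, beside 33.7%. RLE size factors, TMM without the 13 mitochondrial transcripts, no filter and limma voom moved no count of calls by over 1.5 times.

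When each animal was left out in turn, calls ranged from 0 to 1 for either dose at 9 h, from 4 to 5 for the low dose and from 4 to 6 for the high dose at 33 h, from 1 to 4 for the high dose effect between times, and from 0 to 4 of 20 for the ratios, and stayed at 0 for the other comparisons. No paired analysis was possible because the labels give no number shared between groups. Of these settings, ATP8 was called at the high dose at 33 h in the fit of the compared groups alone (adjusted p = 0.0451) and without high dose animal 5 (adjusted p = 0.0370), and in no other.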
